A study of Mus musculus with 24 samples.

Results

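The 9 genes described here are Atoh1 and 8 transcription factors of the intestinal secretory lineage, Gfi1, Spdef, Klf4, Foxa1, Foxa2, Creb3l1, Creb3l4 and Bhlha15. They were found by matching the Ensembl identifiers of the count files to mouse gene symbols, and make up 9 of 45513 genes counted. RNA was sequenced from sorted cells of adult C57BL/6 mice homozygous for 1 of 2 knock-in alleles at the Atoh1 locus. Both alleles placed CreERT2, a tamoxifen-dependent recombinase, after the Atoh1 coding sequence and kept the same 3′ cassette. Atoh1(WT)CreERT2 (WT) encoded the normal protein. Atoh1(9S/T-A)CreERT2 (9S/T-A) encoded a protein in which 9 serines or threonines were changed to alanine. All mice also carried a tdTomato (tdTom) reporter at the Rosa26 locus and received 3 mg of tamoxifen. EpCAM+ tdTom+ live cells, that is, epithelial cells that had used the Atoh1 locus, were sorted the day after from crypt fractions of the small intestine (SI) and the colon. With 2 genotypes and 2 tissues there were 4 groups of 6 libraries, named by genotype and tissue (WT SI, 9S/T-A colon and so on), with 3 libraries of each group from females. No group lacked the CreERT2 allele, so that unmodified mice were not part of the comparison, and reporter activity, which marked the cells, itself depended on Atoh1 expression.

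ATOH1 is a basic helix-loop-helix (bHLH) factor that binds E-box sequences together with an E protein and starts secretory differentiation in crypt progenitors from which Notch signaling has been withdrawn. The factors downstream of it divide and mature this lineage. GFI1 favors goblet and Paneth cells over enteroendocrine cells, SPDEF and KLF4 act in goblet cell maturation, the forkhead factors FOXA1 and FOXA2 act on mucin genes and in enteroendocrine cells, and CREB3L1, CREB3L4 and BHLHA15 (MIST1) are associated with building the secretory apparatus.

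The codons at issue in Atoh1 are shown first, since the genotypes differ in them. The study mutated serine and threonine residues that precede a proline, which is the motif of proline-directed kinases. In the reference genome (GRCm38) the Atoh1 reading frame lies within a single exon, at chr6:64729323-64730375 on the plus strand, and its 351 codons hold exactly 9 serine or threonine codons directly followed by a proline codon, 5 for serine and 4 for threonine. Each is printed 5′ to 3′ with 9 bases before the serine or threonine codon, which is in capitals, and the proline codon as the first of the bases after it.
Codon 32: ccgccgctgACGccacagccacct
Codon 64: gcctggctgACTcccactttgcag
Codon 82: ctgctgcatTCTcccgagctgggt
Codon 115: ctcagcaagAGCcccgggcccgtc
Codon 214: ttgctgcagACTcccaatgtcgga
Codon 264: ccgagacctACCccgcccgggcct
Codon 309: aaggacctgTCGccttcgctgccc
Codon 328: agcaaaacaTCTcccagatcccac
Codon 339: ggagagtttTCCccccactctcat
The codons run from codon 32 to codon 339, with none between codons 115 and 214. Reads of 50 bases were counted, and 22.0% of the positions at which such a read can start in the counted Atoh1 exon give a read over at least 1 of these codons, with at most 2 of them in any read. The mutant allele's own sequence and its reads at these codons were not used here, and whether the altered bases moved the alignment of Atoh1 reads in the 9S/T-A libraries was not tested.

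**Figure D1:**
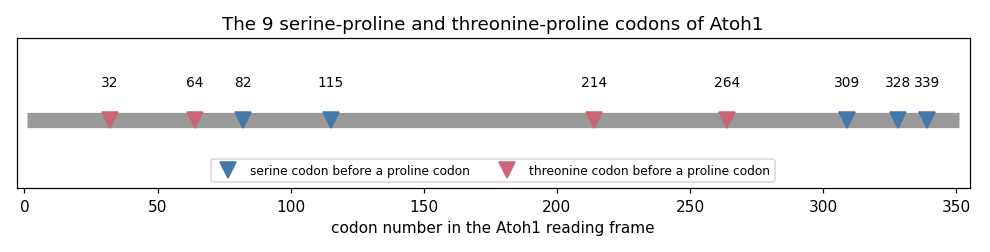
Positions of the 9 serine-proline and threonine-proline codons along the 351 codons of the Atoh1 reading frame, with serine codons in blue and threonine codons in red. Of the 9 codons, 3 lie before codon 100, and the last is codon 339.

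The other genes lie, in the coordinates of the count files (GRCm38), at chr5:107716657-107726036 for Gfi1, chr17:27714352-27728951 for Spdef, chr4:55527143-55532466 for Klf4, chr12:57540631-57546121 for Foxa1 and chr2:148042877-148046969 for Foxa2. Creb3l1 lies at chr2:91982328-92024502, Creb3l4 at chr3:90237500-90243512 and Bhlha15 at chr5:144190286-144194441.

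The libraries held 36.0 to 65.8 M counted reads, and no member had fewer than 529 reads in any library. The 20 most abundant genes took 37.2% to 44.8% of the counts in the SI libraries and 12.3% to 19.4% in the colon libraries, so values are given as CPM, a read count relative to library size, on a common TMM scaling of all 24 libraries. Goblet cell products summed to 315800 to 508600 CPM in SI and 36630 to 83500 CPM in colon, and the 6 Paneth cell markers to 36810 to 74030 CPM in SI and 181.8 to 1489 CPM in colon. The 7 leukocyte markers summed to at most 38.6 CPM in any library and the 7 stromal markers to at most 20.2 CPM. Of the stromal markers only Col3a1 was at 0 in every library. In bulk samples of this kind, fewer cells of a type and less RNA per cell cannot be told apart.

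All 9 genes were expressed in every group, at levels between percentiles 56.1 and 99.0 of the genes tested when divided by gene length. Per length (RPKM, CPM divided by the gene length in kilobases), the order in WT SI ran from Klf4 (168 ± 34.6, SD, n = 6) and Spdef (154 ± 15.4) through Creb3l1 (92.1 ± 2.80), Creb3l4 (64.9 ± 3.86) and Atoh1 (44.2 ± 7.43) to Bhlha15 (18.6 ± 2.78), Foxa1 (15.5 ± 1.66), Foxa2 (15.4 ± 1.0) and Gfi1 (11.6 ± 2.16). The libraries of Klf4 and Spdef overlapped, as did those of neighboring genes from Bhlha15 to Gfi1. In WT colon Creb3l1 stood first at 233 ± 31.9 RPKM, above Spdef at 152 ± 11.3, Klf4 at 105 ± 14.3 and Creb3l4 at 103 ± 9.05. Atoh1 followed at 49.3 ± 7.50 RPKM, above Foxa1 at 35.8 ± 1.67, Foxa2 at 20.4 ± 1.81, Gfi1 at 8.94 ± 0.630 and, lowest of the 9, Bhlha15 at 4.24 ± 1.31. There, Klf4 and Creb3l4 overlapped. The master regulator of the lineage was therefore in the middle of the list in both tissues, below Spdef, Klf4, Creb3l1 and Creb3l4 in transcript level per length.

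**Figure D2:**
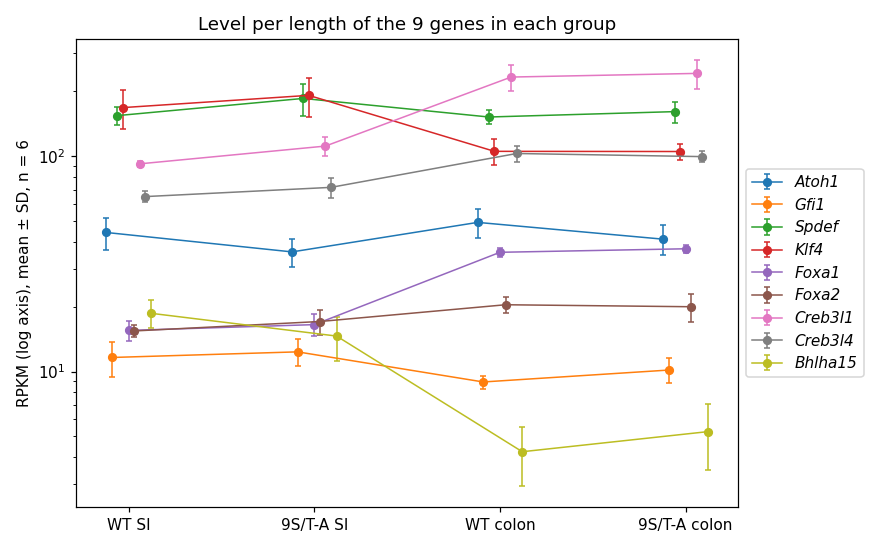
Level per length of the 9 genes (RPKM, log axis) as mean ± SD of 6 libraries in each group. The lines join the points of 1 gene and carry no order of groups. Creb3l1 and Foxa1 stand higher in both colon groups than in both SI groups, and Bhlha15 and Klf4 lower.

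The first comparison asked whether the phosphomutant ATOH1 goes with a different level of these factors in SI. No member was called (edgeR quasi-likelihood test, adjusted p under 0.05, 0 of 9), against 1.94% of the 16236 genes tested in that comparison. At an unadjusted p under 0.05 there were 4 of 9, Atoh1, Spdef, Creb3l1 and Bhlha15, against 15.7% of all genes. DESeq2 called 1, Creb3l1, against 776 of the 19015 genes it tested. For none of the 9 did the 6 and 6 libraries separate, against 2.07% of all genes. The median log2 fold change was 0.14 over the members and 0.0002 over all genes tested.

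Atoh1 itself, transcribed from the knock-in alleles, gave 79.1 CPM in the lowest, 86.5 in the median and 121 in the highest WT SI library, and 57.7, 74.2 and 90.1 CPM in 9S/T-A SI. All 6 mutant libraries lay below the WT mean, while the ranges of the groups overlapped. The log2 fold change (9S/T-A over WT) was -0.30 (SE 0.118, edgeR adjusted p = 0.23). The highest WT library and the lowest mutant library both carried the number 2. Without the libraries numbered 2 of both genotypes it was -0.14 (SE 0.0885, adjusted p = 0.363). An effect of the altered codons on the alignment of Atoh1 reads was not tested.

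Gfi1, the zinc finger repressor that separates goblet and Paneth cells from enteroendocrine cells, had 32.0, 35.4 and 49.7 CPM (lowest, median, highest) in WT SI and 30.9, 40.2 and 48.2 CPM in 9S/T-A SI. The groups spanned nearly the same range, with a log2 fold change of 0.09 (adjusted p = 0.771, SE 0.123). Spdef, an ETS factor of goblet cell maturation, had 293, 330 and 386 CPM in WT SI and 300.5, 402 and 485 CPM in 9S/T-A SI. Of the mutant libraries 5 lay above the WT mean and number 2 lay below it, with a log2 fold change of 0.26 (adjusted p = 0.269, SE 0.113). Klf4, a zinc finger factor expressed in goblet cells, had 417, 493 and 704 CPM in WT SI against 429, 589 and 773 CPM in 9S/T-A SI. Its groups overlapped over most of their range (log2 fold change 0.19, SE 0.15, adjusted p = 0.58).

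The paralogs Foxa1 and Foxa2 were close to each other and close between genotypes in SI. Foxa1 had 43.4, 49.9 and 56.6 CPM in WT SI and 44.0, 54.9 and 57.8 CPM in 9S/T-A SI (log2 fold change 0.09, SE 0.0931, adjusted p = 0.685). Foxa2 had 33.9, 36.5 and 39.6 CPM in WT SI and 32.1, 40.5 and 47.3 CPM in 9S/T-A SI (log2 fold change 0.15, SE 0.0896, adjusted p = 0.465). Neither pair of ranges separated.

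Of the 9 genes, Creb3l1 came closest to the threshold in SI. This gene encodes a transcription factor held in the endoplasmic reticulum membrane until it is cleaved, and is known for its part in goblet cell maturation in the colon. It had 234, 237 and 254 CPM in WT SI and 241, 293 and 329 CPM in 9S/T-A SI. All 6 mutant libraries exceeded the WT mean and 5 of them exceeded the highest WT library, the exception being number 2. The log2 fold change was 0.27 (SE 0.0734, edgeR adjusted p = 0.0784), and DESeq2 gave 0.28 with an adjusted p of 0.0119. Without 9S/T-A SI replicate 2 the edgeR adjusted p was 0.0151, and without the libraries numbered 2 of both genotypes it was 0.0239. The 6 WT SI libraries varied by 3.04% (coefficient of variation), the lowest of the 36 gene and group combinations, whose median was 13.3%.

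Its relative Creb3l4, which codes for another membrane-bound factor of the same family, had 103, 107 and 118 CPM in WT SI and 105, 119 and 139 CPM in 9S/T-A SI (log2 fold change 0.14, SE 0.0781, adjusted p = 0.412). Bhlha15, a bHLH factor of exocrine secretory cells, went the other way, with 54.6, 63.4 and 77.1 CPM in WT SI and 36.5, 52.7 and 64.4 CPM in 9S/T-A SI. All 6 mutant libraries lay below the WT mean, and 3 of them below the lowest WT library, and the log2 fold change was -0.35 (SE 0.144, adjusted p = 0.249).

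**Figure D3:**
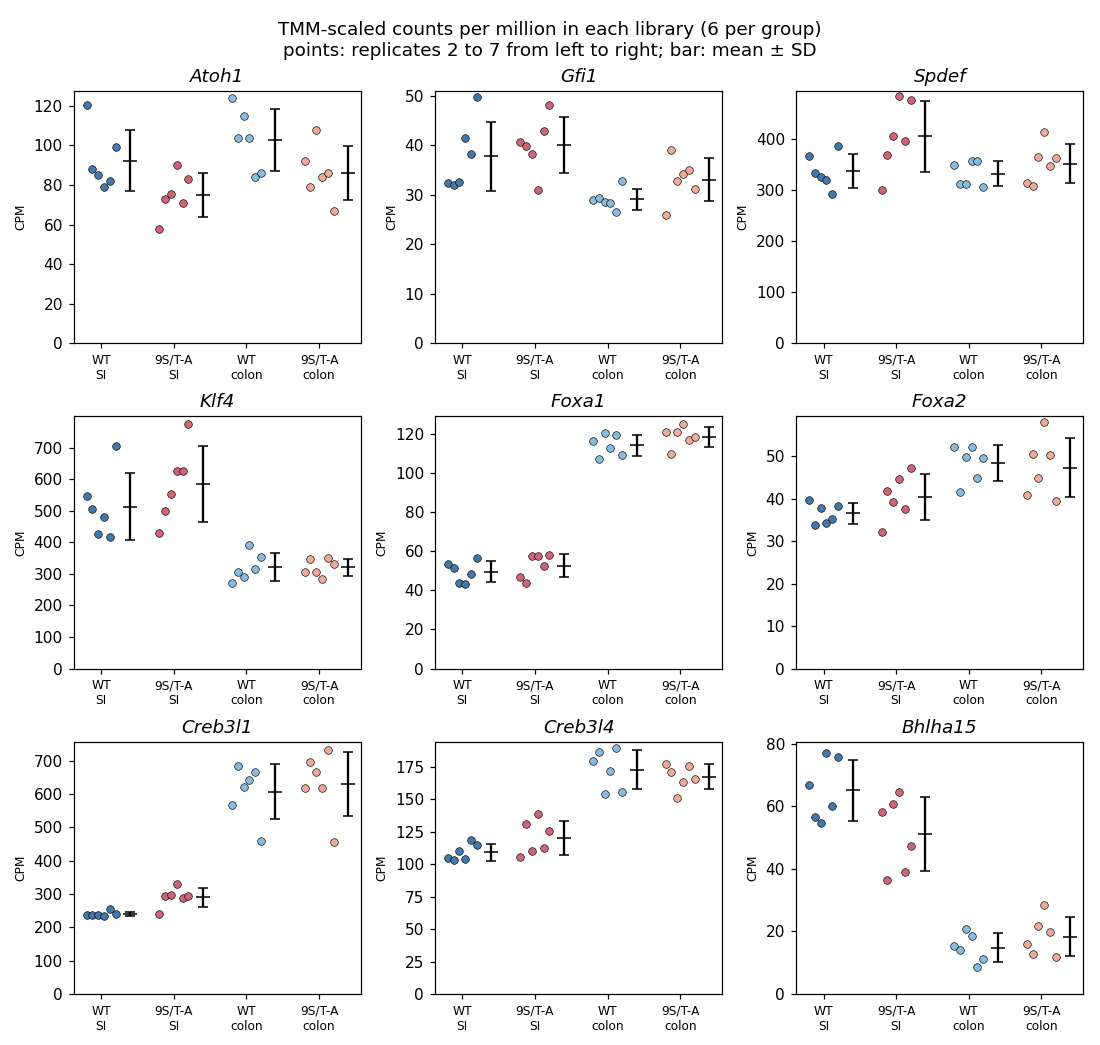
CPM of each gene in each library (points, replicates 2 to 7 from left to right), with the mean ± SD of each group of 6 beside them, on axes that start at 0. The 6 WT SI libraries of Creb3l1 lie between 234 and 254 CPM, and 9S/T-A SI replicate 2 is the lowest of its group for 6 of the 9 genes, Atoh1, Spdef, Klf4, Foxa2, Creb3l1 and Creb3l4.

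Markers of other cell types were read beside these values in SI. Of the 6 Paneth cell markers 4 were lower in 9S/T-A (edgeR adjusted p under 0.05), against 1.94% of all genes called in either direction. Among them was Mmp7, with a log2 fold change of -1.25 (adjusted p = 0.0072). The 6 markers summed to 47150 to 74030 CPM in WT SI and 36810 to 58020 CPM in 9S/T-A SI. None of the 6 was at 0. Absorptive cell markers summed to 1873 to 4895 CPM in WT SI and 3200 to 5932 CPM in 9S/T-A SI, with 0 of 10 called. Tuft cell markers summed to 43.7 to 93.1 CPM in WT SI and 16.6 to 76.7 CPM in 9S/T-A SI, with 0 of 3 tested called. When same-numbered libraries were paired, edgeR called Dclk1 (adjusted p = 0.00703), Avil (0.0134) and Trpm5 (0.0156), against 477 of 16236 genes. The part of these populations in the member values was not tested.

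A second comparison asked the same in colon. No member was called by edgeR (0 of 9), against 0.318% of 16997 genes, and DESeq2 called 0, against 248 of 20304 genes. Unadjusted p values under 0.05 were found for 2, Atoh1 and Gfi1, against 8.81% of all genes, and 0 of 9 had libraries that separated, against 0.906%. Atoh1 had 84.1, 104 and 124 CPM in WT colon and 67.0, 84.9 and 108 CPM in 9S/T-A colon. Of the mutant libraries 5 lay below the WT mean, and the log2 fold change was -0.24 (SE 0.11, adjusted p = 0.558), beside -0.30 in SI. For Gfi1 the values were 26.5, 28.7 and 32.7 CPM in WT colon and 25.9, 33.5 and 39.0 CPM in 9S/T-A colon. The mutant libraries were more widely spread than WT and 5 of 6 lay above the WT mean (log2 fold change 0.20, SE 0.0922, adjusted p = 0.557).

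In colon Bhlha15 was low in both genotypes, with 8.69, 14.8 and 20.9 CPM in WT and 11.9, 17.9 and 28.3 CPM in 9S/T-A. The 2 ranges overlapped, and the log2 fold change was 0.33 with the widest error of the 9 (SE 0.23, adjusted p = 0.82). Spdef (0.10, SE 0.0836), Creb3l1 (0.08, SE 0.112), Foxa1 (0.07, SE 0.0559), Klf4 (0.02, SE 0.0999), Foxa2 (-0.01, SE 0.0959) and Creb3l4 (-0.03, SE 0.0688) had log2 fold changes no larger than about their error or slightly above it, with adjusted p of 0.861 or more. Creb3l1, with all mutant libraries above the WT mean in SI, had 459, 631 and 685 CPM in WT colon and 457, 642 and 731 CPM in 9S/T-A colon, which are nearly the same ranges.

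**Figure D4:**
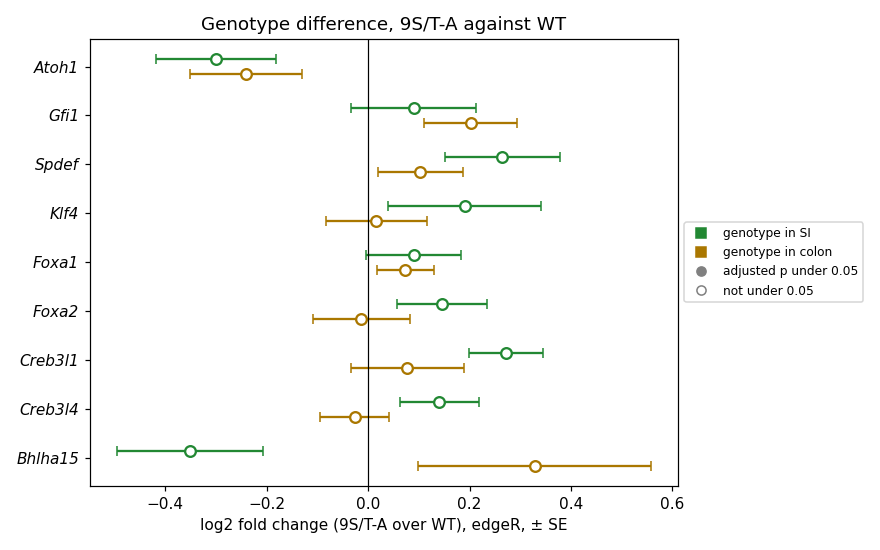
Log2 fold change of 9S/T-A over WT for the 9 genes in SI (green) and colon (ochre), with the edgeR standard error as a bar. Open points have an adjusted p of 0.05 or more, which is the case for all 18. Atoh1 is below 0 in both tissues, and Bhlha15 is on opposite sides of 0 in them.

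Whether the genotype difference itself differed between tissues was tested as an interaction over all 24 libraries. No member was called by edgeR or by DESeq2 (0 of 9, against 0.412% of 17953 genes with edgeR and 255 of 17679 with DESeq2). In edgeR 1 had an unadjusted p under 0.05, against 9.69%. That member was Bhlha15, whose genotype difference was 0.66 log2 higher in colon than in SI (SE 0.29, adjusted p = 0.436). For the other 8 the interaction lay between -0.22 for Creb3l1 and 0.10 for Gfi1. The SE of the interaction was 0.106 or more for all 9 genes, which sets the size of a difference between tissues that these libraries could show.

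Within a library the ratio of each factor to Atoh1 does not depend on how the library was scaled, so ratios per length were set side by side. The ratio was looked at after the values above were seen and is given without a test. In SI, Spdef stood at 2.91 to 3.86 times Atoh1 in the WT libraries and at 4.82 to 5.49 times Atoh1 in the 9S/T-A libraries. Creb3l1 stood at 1.57 to 2.48 times Atoh1 in WT and at 2.83 to 3.35 times in 9S/T-A. The ranges of the genotypes did not overlap for either gene, nor for Foxa1, Foxa2 and Creb3l4. For Foxa2 the ratio was 0.289 to 0.391 in WT SI and 0.437 to 0.504 in 9S/T-A SI. The factors with separate ranges were 5 of 8, against 7.50% of the other genes tested in SI, and 5 of 8 against 8.39% without the libraries numbered 2 of both genotypes. All 8 ratios share Atoh1 as their denominator, so that they are not separate measurements. A shift in the alignment of Atoh1 reads between genotypes would enter all 8, and was not tested. The other 3 ratios, of Gfi1, Klf4 and Bhlha15 to Atoh1, overlapped between genotypes in SI. In colon no ratio separated the genotypes (0 of 8, against 2.24%), and Spdef stood at 2.60 to 4.06 times Atoh1 in WT and at 3.24 to 5.17 times in 9S/T-A.

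The tissues were then compared within each genotype. In WT, 7 of 9 members were called, 4 higher in colon and 3 lower, against 63.6% of 16979 genes called, 33.1% higher and 30.4% lower. The libraries of the tissues did not overlap for 6 of 9, against 43.5% of all genes. In 9S/T-A, 6 of 9 were called, 3 higher and 3 lower, against 60.9% of 16938 genes, 32.9% higher and 28.0% lower, and 5 of 9 did not overlap, against 41.1%. These shares are near or somewhat above those of all genes, since most genes tested differed between SI and colon. Dividing by plain library totals moves the median log2 fold change of all genes from 0.03 to 0.74 in WT and from 0.04 to 0.85 in 9S/T-A, and the calls from 5625 higher and 5169 lower to 12241 higher and 1903 lower in WT. In 9S/T-A the calls move from 5576 higher and 4743 lower to 12546 higher and 1653 lower. Tissue differences are therefore relative to the bulk of genes. By plain totals 7 of 9 members were called in WT, against 14144 of 16979 genes, and 8 of 9 in 9S/T-A, against 14199 of 16938. They were not the same members as with TMM. The log2 fold changes then ran from -1.47 for Bhlha15 to 2.01 for Creb3l1 in WT and from -0.70 for Bhlha15 to 1.95 for Foxa1 in 9S/T-A.

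With TMM scaling, Atoh1 did not pass the test between tissues in either genotype. In WT it had a log2 fold change (colon over SI) of 0.12 (SE 0.117, adjusted p = 0.379), and in 9S/T-A of 0.17 (SE 0.119, adjusted p = 0.245). Without WT SI replicate 2, the library highest in Atoh1 among its group, the WT difference was 0.25 with an adjusted p of 0.0455. Scaled by plain library totals, Atoh1 was higher in colon by 0.84 in WT (adjusted p = 1.34e-06) and 0.97 in 9S/T-A (adjusted p = 3.00e-07) on the log2 scale, against medians of 0.74 and 0.85 for all genes. Relative to those medians its values were 0.10 and 0.12. Spdef had a log2 fold change of -0.06 in WT (SE 0.0837, adjusted p = 0.585) and -0.23 in 9S/T-A (SE 0.122, adjusted p = 0.109). With same-numbered libraries paired the 9S/T-A value was -0.22 with an adjusted p of 0.0288, and without 9S/T-A SI replicate 2 the adjusted p was 0.025. By plain totals Spdef gave 0.66 in WT and 0.58 in 9S/T-A, below the medians of all genes.

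The forkhead pair parted between tissues. Foxa1 was 2.25-fold higher in WT colon (107, 114 and 120 CPM, lowest, median and highest) than in WT SI, with 6 of 6 colon libraries above every SI library (adjusted p = 2.61e-09, log2 fold change 1.17, SE 0.0762). In 9S/T-A the log2 fold change was 1.14 (SE 0.0857, adjusted p = 2.00e-08), from 109.5, 119 and 125 CPM in colon. Foxa2 was 1.29-fold higher in WT colon, at 41.6, 49.9 and 52.2 CPM, than in WT SI (log2 fold change 0.37, SE 0.0712, adjusted p = 0.000288). In 9S/T-A its values of 39.4, 47.7 and 58.1 CPM in colon overlapped those in SI (0.20, SE 0.111, adjusted p = 0.137), while by plain totals it was called (adjusted p = 9.80e-07), at 0.16 above the median of all genes on the log2 scale. Per length, Foxa1 and Foxa2 stood at equal levels in SI, with a Foxa1 to Foxa2 ratio of 0.862 to 1.13 in WT and 0.783 to 1.09 in 9S/T-A. In colon the ratio was 1.60 to 1.98 in WT and 1.60 to 2.23 in 9S/T-A, with no overlap between tissues in either genotype.

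The membrane-bound factors also rose in colon, and not equally. Creb3l1 was 2.47-fold higher in WT colon (log2 fold change 1.30, SE 0.0947, adjusted p = 9.70e-09) and 2.13-fold higher in 9S/T-A colon (1.09, SE 0.117, adjusted p = 1.02e-06). Every colon library lay above every SI library in both genotypes. Creb3l4 was 1.55-fold higher in WT colon, at 154, 175 and 190 CPM (log2 fold change 0.63, SE 0.074, adjusted p = 2.27e-06). In 9S/T-A colon, at 151, 168 and 177 CPM, it was 1.36-fold higher (0.45, SE 0.0856, adjusted p = 0.000334). The ratio of Creb3l1 to Creb3l4 per length was 1.35 to 1.49 in WT SI and 1.90 to 2.60 in WT colon. In 9S/T-A it was 1.45 to 1.73 in SI and 1.78 to 2.86 in colon, again with no overlap between tissues.

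Bhlha15 showed the widest tissue difference of the 9 genes. It fell in WT colon by 2.17 on the log2 scale (SE 0.18, adjusted p = 4.62e-08) and in 9S/T-A colon by 1.51 (SE 0.208, adjusted p = 1.57e-05). The highest colon library of either genotype, at 28.3 CPM, lay below the lowest SI library, at 36.5 CPM. Klf4 had 271, 311 and 390 CPM in WT colon and 283, 320 and 351 CPM in 9S/T-A colon, in each genotype below all SI libraries. Its log2 fold change was -0.71 in WT (SE 0.131, adjusted p = 0.00021) and -0.90 in 9S/T-A (SE 0.132, adjusted p = 2.94e-05), and by plain library totals neither call held, with 0.01 in WT (adjusted p = 0.957), against a median of 0.74 for all genes, and -0.09 in 9S/T-A (adjusted p = 0.538), against 0.85.

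Gfi1 was lower in colon, by 0.41 on the log2 scale in WT (log2 fold change -0.41, SE 0.105, adjusted p = 0.0031) and 0.31 in 9S/T-A (-0.31, SE 0.111, adjusted p = 0.0242), with overlapping ranges in both, and by plain totals its log2 fold changes were 0.30 (adjusted p = 0.0514) and 0.49 (adjusted p = 0.00331). Relative to the median of all genes under that scaling its values were -0.44 in WT and -0.36 in 9S/T-A. The 9S/T-A call was lost without 9S/T-A colon replicate 2, 9S/T-A SI replicate 6 or 9S/T-A SI replicate 7, with adjusted p up to 0.0599. The 6 Paneth cell markers, with medians of 64710 CPM in WT SI and 253.5 CPM in WT colon, were lower in colon, as were Bhlha15, Klf4 and Gfi1. Of the 12 goblet cell products, 8 were lower and 2 higher in WT colon, against 30.4% and 33.1% of all genes. Creb3l1, Foxa1, Creb3l4 and Foxa2 were higher in WT colon, opposite to the Paneth cell markers and most goblet cell products. The part of either population in these differences was not tested.

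**Figure D5:**
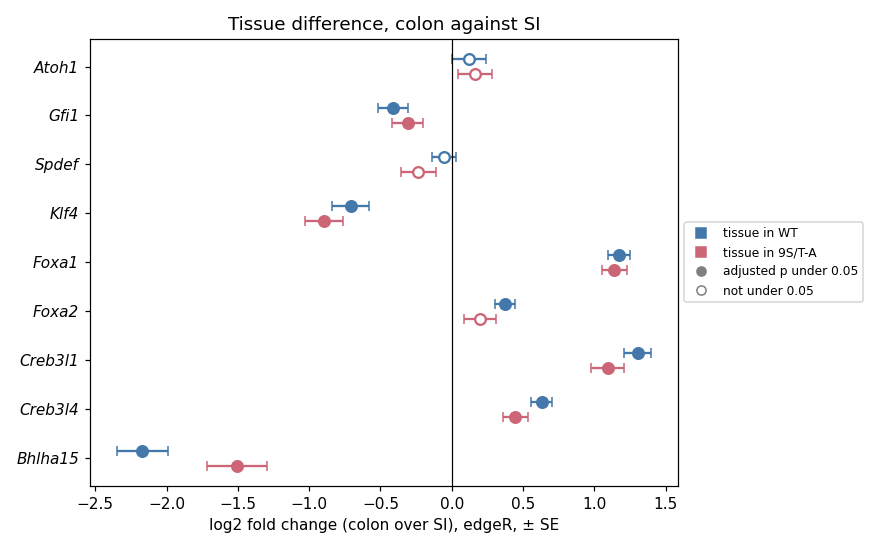
Log2 fold change of colon over SI for the 9 genes in WT (blue) and 9S/T-A (red), with the edgeR standard error as a bar. Filled points have an adjusted p under 0.05. Creb3l1, Foxa1 and Creb3l4 are above 0 and Klf4, Gfi1 and Bhlha15 below it in both genotypes, while Atoh1 and Spdef have open points in both.

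Covariation with Atoh1 from library to library was described by Pearson's r over 24 libraries, after subtracting each group's mean of log2(CPM + 1). The points share libraries and depth, and no test was made. Among 9654 genes, those most like Atoh1 were Tgfa (r = 0.869), Mcmbp (0.859), Sowahb (0.847), Muc13 (0.841) and Etnk1 (0.84). Of the other members, Foxa1 (0.523), Spdef (0.513), Foxa2 (0.491), Bhlha15 (0.467) and Creb3l1 (0.446) varied with Atoh1 more than Klf4 (0.255) and Creb3l4 (0.133), and Gfi1 had r = -0.193. Ranked by r among the 9654 genes, the members ran from 1129 for Foxa1 to 7729 for Gfi1, so that many other genes varied with Atoh1 more closely. Several of these values came from 1 tissue. Spdef had r = 0.863 over the 12 SI libraries and 0.0135 over the 12 colon libraries, and Klf4 had 0.683 and -0.473. Bhlha15 had 0.145 in SI and 0.686 in colon. Among all 36 pairs of members 29 had r above 0, with a median of 0.259, from -0.256 for Creb3l4 and Bhlha15 to 0.705 for Spdef and Foxa1. Pairs of other genes were not computed for comparison.

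The pathway around Atoh1 was read from lists of its other known components. Of 7 bHLH partners and Id antagonists, 2 rose in 9S/T-A SI, against 1.94% of all genes called in either direction. The same number rose in 9S/T-A colon, against 0.318%. They were Id4, by 1.73 on the log2 scale in SI (SE 0.118) and 1.45 in colon (SE 0.182), and Id2, by 0.72 in SI (SE 0.106) and 0.59 in colon (SE 0.111). ID proteins bind E proteins and keep them from DNA. Id1 did not pass in either tissue (0.15 in SI, adjusted p = 0.602, and 0.17 in colon, adjusted p = 0.851).

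Of 11 Notch pathway genes tested, 1 was called by genotype in SI and 0 in colon, against 1.94% and 0.318% of all genes. Pairing same-numbered libraries, edgeR also called Dll4 in SI (adjusted p = 0.0352) and Lfng in colon (adjusted p = 0.0447). Jag2, a Notch ligand, was higher in 9S/T-A SI by 0.71 on the log2 scale (SE 0.122, adjusted p = 0.00637). The ligand gene Dll1, expressed in secretory progenitors, gave 0.16 in SI (adjusted p = 0.548) and 0.10 in colon (adjusted p = 0.994), and the Notch target Hes1, a repressor of Atoh1, gave 0.01 in SI (adjusted p = 0.975) and -0.26 in colon (adjusted p = 0.406). Between tissues 7 of 11 were called in WT, 2 higher in colon and 5 lower, against 63.6% of all genes called, with Dll1 lower by a log2 fold change of -1.57 (SE 0.117).

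Of 13 transcription factors of other secretory branches, 0 were called in colon, against 0.318% of all genes. When same-numbered libraries were paired, edgeR called Pax4 there (adjusted p = 0.0219). In SI 3 were lower in 9S/T-A, against 1.94% of all genes called in either direction. They were Pou2f3, the tuft cell factor (log2 fold change -1.18, SE 0.24), Gfi1b, a relative of Gfi1 (-1.76, SE 0.301), and Sox4 (-0.56, SE 0.127). Neurog3, which starts enteroendocrine differentiation, gave -0.83 in SI (SE 0.324, adjusted p = 0.225). Its edgeR adjusted p with same-numbered libraries paired was 0.0212. The median log2 fold change by genotype of the 13 was -0.95 in SI and -0.44 in colon, against 0.0002 and 0.0049 for all genes. Between tissues, 12 of these 13 genes were lower in colon in WT, against 30.4% of all genes, and 11 of 13 in 9S/T-A, against 28.0%.

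Among the products of these factors, 0 of 12 goblet cell products were called by genotype in SI and 1 in colon, against 1.94% and 0.318% of all genes. The gene called was Spink4, a small secreted inhibitor (log2 fold change 0.68, SE 0.122, adjusted p = 0.0287). Muc2, the main secreted mucin, gave 0.27 in SI (adjusted p = 0.434) and 0.46 in colon (adjusted p = 0.223). Pairing same-numbered libraries gave an edgeR adjusted p of 0.0282 for Muc2 in colon. None of 11 genes of the secretory machinery was called in either tissue, against the same 1.94% and 0.318%, shares too small for 11 genes to show a lack of calls. Xbp1, a regulator of the unfolded protein response, gave 0.15 in SI (adjusted p = 0.318) and 0.10 in colon (adjusted p = 0.764).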

How the data were processed

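The authors extracted RNA from sorted EpCAM+ tdTom+ cells, made stranded mRNA libraries and sequenced single 50-base reads. The submitters' processing notes list TopHat2 2.1.1, Subread 1.5.2, DESeq2 1.14.1 and the build GRCm38.p3, and the deposited files hold raw counts per gene of primary alignments over exons, with the strand used. Identical files were not found in any of the 60 same-group pairs. The members and lists were chosen with earlier results of these data known. Groups came from the sample titles.

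The tests used the quasi-likelihood method of edgeR 4.0.16 (R 4.3.3) on the counts, after filterByExpr and TMM, with Benjamini-Hochberg adjustment over all genes tested and a threshold of 0.05, separately for the 2 groups of each comparison and over 24 libraries for the interaction. CPM used 1 TMM scaling of all 24 libraries, whose factors were 0.690 to 0.871 in SI and 1.20 to 1.49 in colon. RPKM divided CPM by the gene length in the files. For likeness, 1 was added to CPM and genes under a mean log2 CPM of 3 were left out. All 9 genes were described. Of the other lists, at most 3 called genes per comparison were named by adjusted p, and Hes1, Dll1, Id1, Neurog3, Muc2 and Xbp1 whatever their values. Some genes called only with the replicate block were also named. Scripts were tested on simulated data. Alternatives were DESeq2 1.42.0, RLE or plain library totals as scaling, no gene filter, sex as a covariate, a replicate block, a fit of all 24 libraries and leaving out each library. Tables and plots were made in Python 3.11.15 with pandas 2.3.3 and matplotlib 3.10.9.

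Libraries carry replicate numbers 2 to 7 in every group, and libraries with the same number had the same sex. Between SI and colon, the deviations of same-numbered libraries from their group means correlated for 6 of 6 pairs in WT (r = 0.168 to 0.568) and in 9S/T-A (0.159 to 0.649), so the numbers may pair the tissues. The part of shared sex in these correlations was not tested. The labels do not tie libraries to animals, and where same-numbered libraries share an animal the unpaired tissue tests ignore it. The main tissue and interaction tests were unpaired, and pairing (the replicate block) was an alternative. Paired, 7 of 9 members were called between tissues in WT, against 11716 of 16979 genes. In 9S/T-A 7 of 9 were called paired, against 11634 of 16938 genes, and 6 unpaired. If replicates are not separate animals, p-values measure only the spread between these libraries.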

Additional observations from a re-analysis of the deposited data

Results flagged for a closer look

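Among the 36 combinations of gene and group, 1 had a library far from the others of its group, judged by the gap to its nearest neighbor as a share of the group's range. This was Creb3l1 in WT SI replicate 6, at 253.9 CPM, with a gap of 0.657 of the range against a critical value of 0.625. Chance flags about 1 in 20 groups of this size. The other 5 WT SI libraries lay between 234.0 and 240.8 CPM.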

How the results depend on the processing

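Of 306 alternative values of the members that left out no library, 288 kept their direction and their side of the threshold, as did 617 of 648 with 1 library left out. The members called numbered 0 to 1 in SI by genotype, 0 in colon and in the interaction, 7 to 8 between tissues in WT and 5 to 7 in 9S/T-A with 1 library left out. In SI the count was 1 with DESeq2 and 1 without the libraries numbered 2 of both genotypes, an alternative chosen after seeing the data. In both cases, and without 9S/T-A SI replicate 2, the member called was Creb3l1.

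Plain library totals reversed the SI genotype difference of Gfi1 (-0.028) and Foxa1 (-0.027), the colon genotype difference of Klf4 (-0.024), the WT tissue difference of Gfi1 (0.30), Spdef (0.66) and Klf4 (0.0083), the 9S/T-A tissue difference of Gfi1 (0.49) and Spdef (0.58) and the interaction of Foxa1 (0.063). A fit of all 24 libraries reversed Klf4 by genotype in colon (-0.0029). So did leaving out the libraries numbered 2 of both genotypes for Klf4 (-0.016) and Foxa2 (0.048) in colon, and those numbered 7 for Foxa2 (0.046), both chosen after seeing the data. Leaving out 1 library reversed values near 0, giving -0.042 to 0.12 for the Atoh1 interaction, -0.069 to 0.0089 for that of Foxa1, -0.054 to 0.0091 for Creb3l4, -0.077 to 0.033 for Foxa2 and -0.031 to 0.079 for Klf4 by genotype in colon, and -0.075 to 0.012 for Spdef between WT tissues.

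Between tissues in 9S/T-A, Foxa2 was called in the fit of all 24 libraries (0.23, adjusted p = 0.0384) and Gfi1 was not called without a gene filter (adjusted p = 0.0525). The cause was not tested. By genotype, 4 of 6 same-numbered pairs in SI and 5 of 6 in colon correlated above 0.1 (r = -0.0949 to 0.696 and 0.0197 to 0.853), beside 6 of 6 between tissues. The mean r of libraries with different numbers was -0.0348 in SI and -0.0664 in colon, so that same-numbered libraries may share a source, more so in colon, which the labels do not settle. Same-numbered libraries also had the same sex. The replicate block called 0 members in SI and 0 in colon, with Creb3l1 in SI at 0.27 (adjusted p = 0.0881), Atoh1 in colon at -0.24 (adjusted p = 0.0912) and the Bhlha15 interaction at 0.67 (adjusted p = 0.138). Apart from Spdef between tissues in 9S/T-A, it changed no call of a member.

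Over all genes, the calls by genotype in SI numbered 315 of 16236 with edgeR, 776 of 19015 with DESeq2, 477 of 16236 with the block and 520 of 17953 in the fit of all libraries. In colon they numbered 54, with 248 for DESeq2, 385 for the block, 90 without a gene filter, 89 with sex as a covariate and 103 in the fit of all libraries. For the interaction there were 74, with 255 for DESeq2 and 342 for the block. By plain totals the SI genotype calls moved from 168 higher and 147 lower to 78 higher and 190 lower, with a median of -0.11 for all genes, and the interaction calls from 52 and 22 to 65 and 8.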

Other observations

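Other cell populations were read in the same libraries. Enteroendocrine markers summed to 178.8 to 424.3 CPM in WT SI and 155.3 to 370.4 CPM in 9S/T-A SI. By genotype edgeR called 1 of 7 in SI and 0 of 7 in colon, against 1.94% and 0.318% of all genes. The gene called was Gcg, the proglucagon gene, at a log2 fold change of -2.65 (adjusted p = 0.000227, SE 0.301). Cell cycle genes summed to 244.7 to 326.2 CPM in WT SI and 187.3 to 289.2 CPM in 9S/T-A SI, and to 107.4 to 173 CPM in WT colon and 114.3 to 208.2 CPM in 9S/T-A colon, with 0 of 5 called by genotype in either tissue. Stem cell markers were also not called by genotype (0 of 5 in each tissue). These counts depended on pairing. With the replicate block, edgeR called the stem cell marker Smoc2 in SI (adjusted p = 0.0352). In colon it called the cell cycle genes Mki67 (0.00175) and Top2a (0.0245) and the enteroendocrine markers Chga (0.0414) and Chgb (0.0493). The block called 477 of 16236 genes in SI and 385 of 16997 in colon. The interaction called 1 Paneth cell marker of 6, against 0.412% of all genes. It was Mmp7, at 2.10 (SE 0.451, adjusted p = 0.0318). Of the 3 stromal markers tested in SI, Vim was lower in 9S/T-A (log2 fold change -1.30, SE 0.289, adjusted p = 0.0333), and 0 of 6 leukocyte markers were called there.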
